A study of Homo sapiens with 6 samples.

Results

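The Toll-like receptor (TLR) and inflammasome module was defined by name as 38 genes of the 26485 in the count table. It comprised 9 receptor and co-receptor genes, 21 genes of the cytoplasmic TLR signaling chain and 8 genes of the NOD and inflammasome branch. All libraries came from THP1, a single established human acute myeloid leukemia line of monocytic type, without gene modification. DMSO, the solvent control, was given to 3 cultures and withaferin A (WFA), a steroidal lactone from a medicinal plant, to 3 cultures, each for 6 h. The labels give the WFA dose as 1 mM, whereas the study's text gives 1 μM for this same RNA-seq experiment. The counts themselves cannot show which unit is right. Replicates 1 to 3 of each group came from independent experiments, no TLR ligand or inflammasome activator is named in the labels, and the comparison asks which genes change in these cells after WFA exposure.

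Toll-like receptors recognise microbial lipids, proteins and nucleic acids at the cell surface or in endosomes and pass the signal through adapters, IRAK kinases and the ubiquitin ligase TRAF6 to the TAK1 and IKK kinases, which release NF-kB. A second branch through TICAM1, TBK1 and IKBKE leads to interferon regulatory factors. NOD2 and the inflammasome sensors act in the cytosol, where NLRP3, through the adapter PYCARD, activates caspase-1 (CASP1), the protease that matures IL-1β, and monocytes use all of these routes.

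The sequences just upstream of TLR6 and TLR8 are shown because these receptors moved in opposite directions, TLR6 upwards and TLR8 downwards, and because their upstream windows lay wholly before the gene start in both RefSeq and GENCODE. TLR6, which did not pass 2-fold, was picked for display after its values were seen. Each is the 250 bases before the RefSeq start (GRCh38.p14), at chr4:38856818-38857067 on the minus strand for TLR6 and chrX:12906370-12906619 on the plus strand for TLR8, with capitals marking matches to searched motifs.
TLR6: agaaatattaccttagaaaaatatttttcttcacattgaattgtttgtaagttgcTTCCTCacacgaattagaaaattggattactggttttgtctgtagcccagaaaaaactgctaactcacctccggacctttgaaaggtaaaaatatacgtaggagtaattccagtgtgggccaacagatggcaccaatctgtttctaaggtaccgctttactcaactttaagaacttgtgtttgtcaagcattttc
TLR8: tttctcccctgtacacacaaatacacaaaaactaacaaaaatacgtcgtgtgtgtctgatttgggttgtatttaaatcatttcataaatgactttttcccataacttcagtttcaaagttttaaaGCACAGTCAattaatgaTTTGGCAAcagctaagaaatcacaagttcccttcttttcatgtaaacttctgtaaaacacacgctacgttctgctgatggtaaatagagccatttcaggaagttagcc
Of 6 motifs searched on both strands, TLR6 held the PU.1 core (GAGGAA, here on the opposite strand) 195 to 190 bases upstream, and 23.6% of 35116 windows of the same length held it. TLR8 held a C/EBP match (TTGCNNAA, here on the opposite strand) 108 to 101 bases upstream, found in 9.05% of windows, and an NRF2 element (TGACNNNGC, opposite strand) 125 to 117 bases upstream, found in 10.9%. The letters of the NF-kB consensus, the AP-1 motif (TGANTCA), which can overlap the NRF2 element, and the C/EBP-ATF motif (TGATGNAA) were in neither window, and were in 5.21%, 6.57% and 3.14% of all windows.

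Library depth was 11448188 to 13872810 counts with DMSO and 11006035 to 12788113 with WFA. Levels are given as CPM, a gene's counts scaled by the TMM-corrected size of its library, and a gene was called when edgeR's quasi-likelihood test gave an adjusted p below 0.05 over the 12854 genes tested. All 15 monocyte marker genes were tested, of which 3 rose (20%) and 6 fell (40%). Over all tested genes 25.8% were called higher and 24.7% lower. The summed level of the 15 markers was 4802 to 5419 CPM with DMSO and 4277 to 5230 CPM with WFA. Of 16 markers of other cell types, 9 had at most 3 counts in every library and 5 of those were at 0, among them HBB, PF4, PPBP and COL1A2. A 0 in these counts is a listing and not a measured absence, since the common gene RPS18 also has 0 or 1 count. The summed level of the 16 markers was 363 to 412 CPM with DMSO and 329 to 345 CPM with WFA. PECAM1 alone had a mean of 380 CPM with DMSO and 314 CPM with WFA, so the other markers made up little of this sum. COL1A1, the fibroblast collagen gene, rose from 0.453 to 9.95 CPM (edgeR adjusted p = 7.18e-08), and the part of these markers in the results was not tested. Changes in bulk RNA do not separate fewer cells of a type from less RNA per cell.

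Members moved in both directions. Among the 35 members that passed the filter on low counts, 16 rose and 12 fell with WFA, against 25.8% of all tested genes called higher, 24.7% called lower and 50.5% called in either direction, and 7 were not called. Beyond 2-fold, 3 members rose (IRAK2, IKBKG and CASP1) and 4 fell (TLR2, CD14, TLR7 and TLR8), against 8.11% and 5.2% of all tested genes and 13.3% in either direction. The WFA libraries lay wholly above the DMSO libraries for 16 tested members and wholly below for 12, against 29.6% and 28.5% of all tested genes and 58.1% in either direction. The split stayed at 16 and 12 with DESeq2 size factors and with upper quartile scaling, but not in every fit. With total counts in place of TMM 10 members rose and 14 fell. With TMM but without DMSO replicate 2, 10 rose and 11 fell. All tested genes shifted too, from 3311 called higher and 3178 lower with TMM to 2763 and 3875 with total counts. Without DMSO replicate 2 they were 2942 and 2945. In all 12 alternative fits 19 members kept their call. The 9 higher were TLR6, TICAM1, IRAK2, TRAF6, TANK, TBK1, IKBKG, CASP1 and RIPK2. The 10 lower were TLR2, TLR4, CD14, TLR7, TLR8, MYD88, IRAK3, IKBKE, NLRP3 and PYCARD. How many of all tested genes kept theirs was not counted, so the number has no background to be read against.

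**Figure D1:**
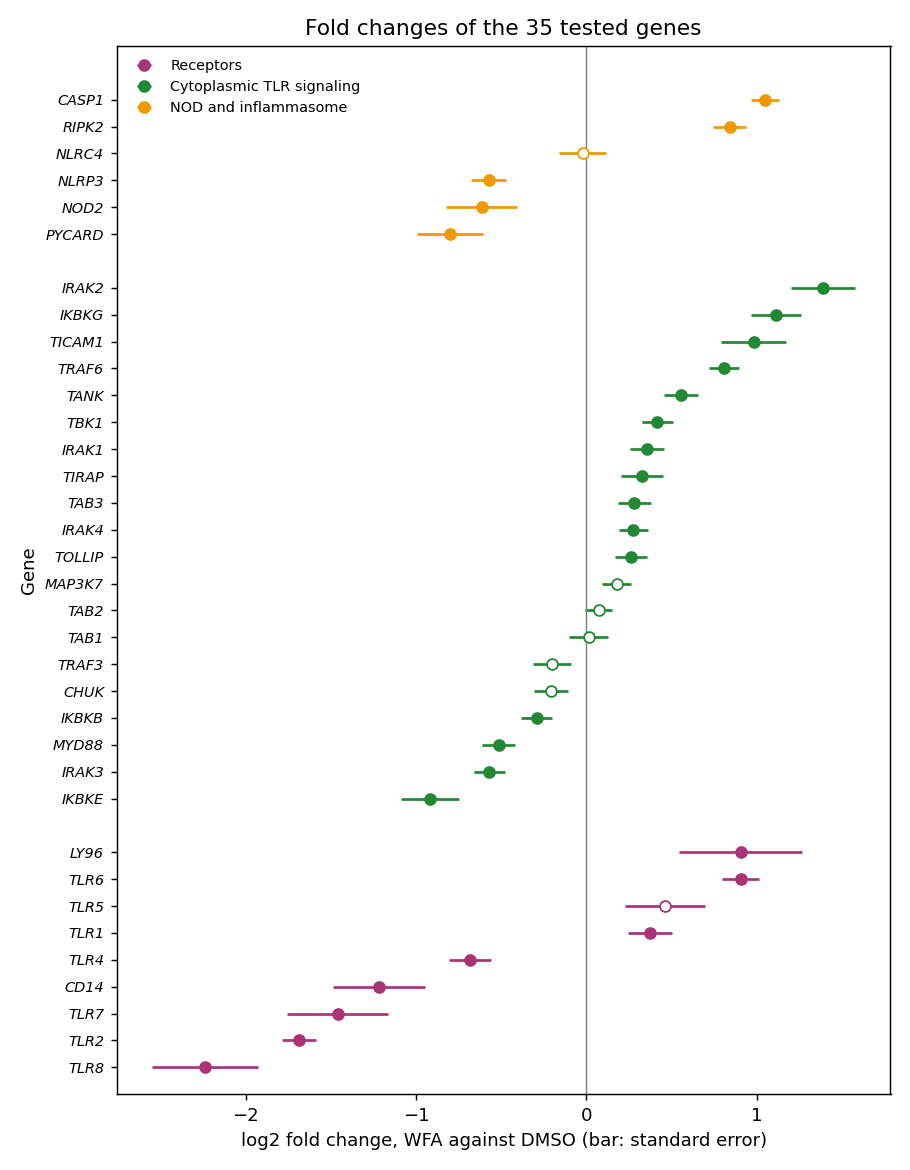
Log2 fold change (WFA over DMSO) of each tested member from edgeR, with bars for the standard error, ordered within receptors, cytoplasmic TLR signaling and the NOD and inflammasome branch. Filled points were called at an adjusted p below 0.05 and open points were not. TLR8 at -2.24 lies lowest and IRAK2 at 1.39 highest.

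At the cell surface, TLR2 fell while its partner receptors TLR6 and TLR1 rose. TLR2, which senses bacterial lipoproteins as a heterodimer with TLR1 or TLR6, lies at chr4:153684070-153705702 on the plus strand (GENCODE 29, GRCh38). Its level was 141, 146 and 163 CPM in the DMSO libraries and 48.1, 50.1 and 41.4 CPM in the WFA libraries. The groups were far apart, and the log2 fold change was -1.69 (SE 0.10, edgeR adjusted p = 4.4e-09, 3 against 3 libraries), which is 3.22-fold lower. TLR6, the partner for diacylated lipopeptides, was at 21.5, 21.5 and 22.5 CPM with DMSO and 45.5, 38.7 and 38.2 CPM with WFA, so that every WFA library exceeded every DMSO library (log2 fold change 0.91, SE 0.11, edgeR adjusted p = 7.22e-06). TLR1, the partner for triacylated lipopeptides, was at 11.4, 12.2 and 11.3 CPM with DMSO and 15.5, 14.6 and 15.1 CPM with WFA. Its groups did not overlap, but the rise was small (log2 fold change 0.37, SE 0.13, edgeR adjusted p = 0.0243) and the call was lost under DESeq2 (adjusted p = 0.0590), under total counts (0.0717) and when any 1 library other than WFA replicate 2 was left out. TLR1 and TLR6 start at the same position in GENCODE, chr4:38856817 on the minus strand, and the exon bases they share are 1.26% of TLR1's and 0.944% of TLR6's.

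The lipopolysaccharide receptor complex changed unevenly. TLR4, its signaling chain, was at 48.2, 43.5 and 54.1 CPM with DMSO and 35.7, 27.0 and 28.1 CPM with WFA. All WFA libraries were lower, with a log2 fold change of -0.68 (SE 0.12, edgeR adjusted p = 0.000304). CD14, which hands lipopolysaccharide to TLR4 and also serves TLR2, was scarce in these cells, at 6.19, 3.63 and 7.33 CPM with DMSO and 2.12, 2.98 and 2.23 CPM with WFA. It fell by 1.22 on the log2 scale (SE 0.27, edgeR adjusted p = 0.00165), and the pair of replicate 2 differed least, by -0.27 against -1.47 and -1.64 in the other pairs. LY96 (MD-2), the lipid-binding subunit that sits on TLR4, was at 1.34, 0.948 and 1.92 CPM with DMSO and 3.02, 1.37 and 3.54 CPM with WFA. The groups overlapped, through WFA replicate 2. LY96 was called higher (log2 fold change 0.91, SE 0.36, edgeR adjusted p = 0.0470), but not under DESeq2 (adjusted p = 0.0792) or total counts (0.0709), nor without DMSO replicate 1 (0.109), DMSO replicate 2 (0.157), WFA replicate 1 (0.148) or WFA replicate 3 (0.197).

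TLR5, the flagellin receptor, was at 4.50, 3.79 and 5.00 CPM with DMSO and 8.33, 5.48 and 4.37 CPM with WFA. It was higher in WFA in the pairs of replicates 1 and 2 and lower in the pair of replicate 3, and it was not called (log2 fold change 0.46, SE 0.24, edgeR adjusted p = 0.119). With the replicate number as a block the adjusted p was 0.0271, and without WFA replicate 3 the log2 fold change was 0.64 (edgeR adjusted p = 0.0381).

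Both endosomal receptors fell. TLR7 and TLR8 sense single-stranded RNA and are neighbours on the X chromosome, TLR7 at chrX:12867083-12890380 and TLR8 at chrX:12906620-12923169, both on the plus strand. TLR8 was at 3.73, 2.84 and 5.17 CPM with DMSO and 0.735, 0.886 and 0.837 CPM with WFA, from 53, 36 and 62 counts and from 9, 11 and 9 counts. The decrease was 4.71-fold (log2 fold change -2.24, SE 0.31, edgeR adjusted p = 2.87e-05), and no other tested member fell as far. TLR7 was at 2.11, 2.29 and 2.92 CPM with DMSO and 0.899, 0.805 and 0.931 CPM with WFA, from 29 to 35 counts against 10 or 11. These few counts limited the precision, yet the groups were well apart (log2 fold change -1.46, SE 0.29, edgeR adjusted p = 0.000719).

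**Figure D2:**
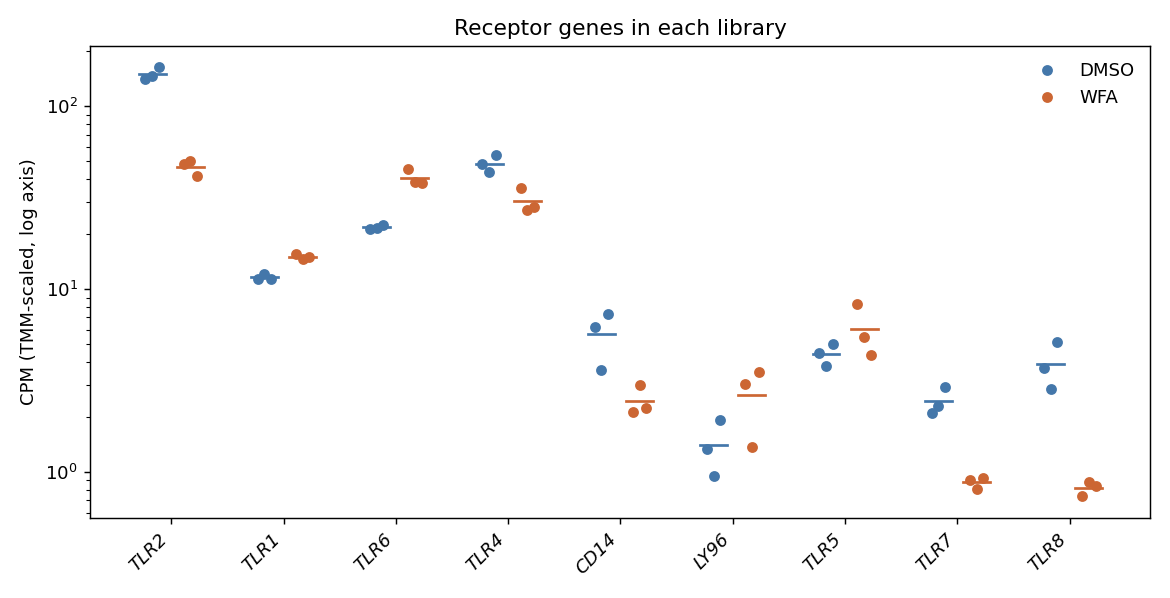
TMM-scaled CPM (log axis) of the 9 receptor genes in each library, with points for the 3 DMSO and 3 WFA libraries and lines for the group means. The groups are apart for TLR2, TLR1, TLR6, TLR4, CD14, TLR7 and TLR8 and overlap for LY96 and TLR5.

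Among the adapters, MYD88 fell while TICAM1 rose. MYD88, used by nearly all TLRs, fell from 48.7 ± 1.79 to 34.1 ± 1.80 CPM (mean ± SD, n = 3), by -0.52 on the log2 scale (SE 0.10, edgeR adjusted p = 0.000371). TICAM1 (TRIF), which couples TLR3 and TLR4 to interferon induction, was at 8.93, 7.58 and 4.92 CPM with DMSO and 12.3, 15.2 and 15.2 CPM with WFA. Its log2 fold change was 0.98 (SE 0.19, edgeR adjusted p = 0.000587), and the pairwise differences for replicates 1, 2 and 3 were 0.45, 0.99 and 1.60. TIRAP, the bridge between MYD88 and TLR2 or TLR4, was called higher (log2 fold change 0.33, edgeR adjusted p = 0.0377), but the call was lost under DESeq2 (adjusted p = 0.0708), total counts (0.119), no filter (0.0542) and without DMSO replicate 2 (0.156), DMSO replicate 3 (0.0812), WFA replicate 1 (0.0610) or WFA replicate 3 (0.134). TIRAP also shares 22.5% of its exon bases with antisense genes. TICAM2, the bridge between TICAM1 and TLR4, had 0, 2 and 0 counts with DMSO and 3, 2 and 3 with WFA, at the floor of 3 counts a library, and 93.4% of its exon bases belong also to other annotated genes.

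The IRAK kinases did not move together. IRAK2, a pseudokinase that sustains signaling, was at 3.31, 3.32 and 3.0 CPM with DMSO and 7.84, 7.73 and 9.77 CPM with WFA. This was a 2.62-fold rise with tight replicates (log2 fold change 1.39, SE 0.19, edgeR adjusted p = 2.26e-05), the largest among tested members. IRAK3 (IRAK-M), an inhibitory member found in monocytes, moved the other way, from 215 ± 13.2 to 144 ± 11.4 CPM (log2 fold change -0.57, edgeR adjusted p = 9.28e-05). The catalytic kinases changed little in size. IRAK1 went from 194 ± 18.5 to 247 ± 26.1 CPM (log2 fold change 0.35, edgeR adjusted p = 0.00864), and its call was lost without DMSO replicate 2 (0.0584). IRAK4, the first kinase of the chain, went from 66.3 ± 2.53 to 80.2 ± 4.18 CPM (log2 fold change 0.27, edgeR adjusted p = 0.0147), and its call was lost with total counts (0.0764) and without DMSO replicate 1 (0.0591).

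TRAF6, the ubiquitin ligase that links IRAK kinases to TAK1, rose from 43.6 ± 1.55 to 76.2 ± 4.6 CPM (log2 fold change 0.81, SE 0.09, edgeR adjusted p = 3.36e-06). The genes of the TAK1 complex below it changed by less. MAP3K7, which encodes TAK1, differed by 0.18 on the log2 scale (edgeR adjusted p = 0.0914, and 0.0458 when replicates were blocked). Of the genes for its binding partners, TAB1 was at 26.8 ± 1.02 and 27.0 ± 2.88 CPM and TAB2 at 183 ± 1.44 and 192 ± 9.68 CPM, neither of them called, with log2 fold changes of 0.013 and 0.071 that turned to -0.071 and -0.014 under total counts. TAB3 was called higher (log2 fold change 0.28, edgeR adjusted p = 0.0248) but lost the call with total counts (0.118) and without DMSO replicate 1 (0.0698), DMSO replicate 2 (0.132) or WFA replicate 1 (0.0810). TRAF3, which steers signals toward the interferon branch, differed by -0.20 on the log2 scale (edgeR adjusted p = 0.142, 0.0499 when replicates were blocked and 0.0492 with total counts).

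In the interferon branch, the scaffold TANK and the kinase TBK1 rose and the related kinase IKBKE (IKKε) fell. TANK went from 61.8 ± 6.30 to 90.7 ± 7.38 CPM (log2 fold change 0.55, edgeR adjusted p = 0.000276) and TBK1 from 72.1 ± 1.98 to 96.2 ± 8.29 CPM (0.42, adjusted p = 0.00116). IKBKE was at 17.6, 24.2 and 18.1 CPM with DMSO and 9.64, 13.0 and 8.84 CPM with WFA, with a log2 fold change of -0.92 (SE 0.17, edgeR adjusted p = 0.000389). The 2 IKK-related kinases thus moved apart, and TBK1 shares 14.7% of its exon bases with an antisense gene that unstranded libraries cannot separate.

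Subunit genes of the IKK complex, which activates NF-kB, moved in different directions. IKBKG (NEMO), its regulatory subunit, was at 7.53, 7.27 and 6.58 CPM with DMSO and 14.4, 14.7 and 17.2 CPM with WFA (log2 fold change 1.11, SE 0.15, edgeR adjusted p = 1.72e-05). IKBKG lies at chrX:154541199-154565046 on the plus strand and has a near-identical copy nearby, so its value is uncertain. The catalytic subunit genes did not rise. IKBKB went from 113 ± 11.2 to 92.4 ± 1.58 CPM (log2 fold change -0.29, edgeR adjusted p = 0.0137), a call lost without DMSO replicate 2 (0.0708), and CHUK (IKKα) was not called (-0.21, adjusted p = 0.102, or 0.0285 with total counts). TOLLIP, an inhibitory binder of TLR and IL-1 receptor complexes, was called higher (log2 fold change 0.26, edgeR adjusted p = 0.0272), but not with total counts (0.134) or when any 1 library other than WFA replicate 1 was left out.

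**Figure D3:**
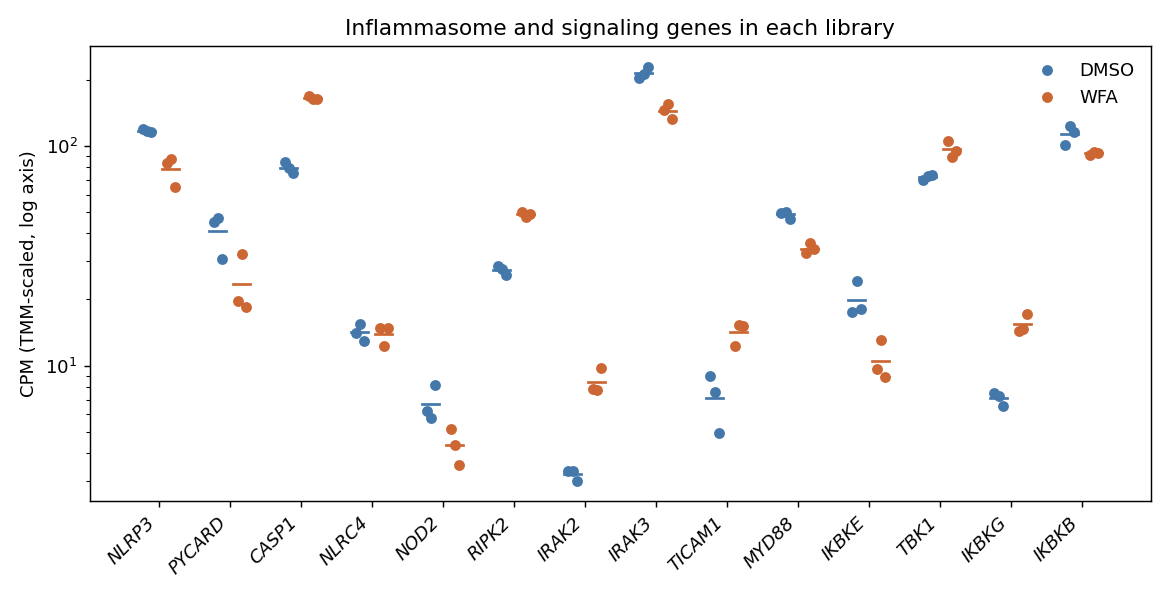
TMM-scaled CPM (log axis) in each library for signaling and inflammasome members, with points for the 3 DMSO and 3 WFA libraries and lines for the group means. IRAK2, IKBKG and CASP1 stand higher in every WFA library.

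In the inflammasome, the sensor and adapter fell while the effector protease rose. CASP1, at chr11:105025443-105035250 on the minus strand, was at 84.5, 79.0 and 75.0 CPM with DMSO and 168, 163 and 162 CPM with WFA. Replicates were close and the groups far apart (log2 fold change 1.05, SE 0.08, edgeR adjusted p = 1.1e-07). CARD16, a neighbouring gene resembling the CASP1 pro-domain, also rose, from 13.9 to 26.3 CPM (edgeR adjusted p = 1.74e-05), and reads shared between the genes may be split. NLRP3, the sensor, went from 117 ± 1.48 to 78.6 ± 11.9 CPM (log2 fold change -0.57, SE 0.10, edgeR adjusted p = 0.000294). PYCARD (ASC), the adapter, was at 45, 46.8 and 30.5 CPM with DMSO and 19.6, 32.1 and 18.5 CPM with WFA. The groups overlapped through DMSO replicate 3 and WFA replicate 2, although each pair was lower with WFA (log2 fold change -0.80, SE 0.19, edgeR adjusted p = 0.00286). PYCARD shares 59.7% of its exon bases with the antisense gene PYCARD-AS1, which went from 3.90 to 2.21 CPM.

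In the NOD2 pathway the sensor fell and its partner kinase rose. NOD2, the muramyl dipeptide sensor, went from 6.71 ± 1.28 to 4.34 ± 0.805 CPM (log2 fold change -0.62, SE 0.21, edgeR adjusted p = 0.0221), a call lost without DMSO replicate 3 (0.107) or WFA replicate 3 (0.0924). RIPK2, the kinase that relays NOD2 signals, rose from 27.3 ± 1.27 to 48.9 ± 1.24 CPM (log2 fold change 0.84, SE 0.10, edgeR adjusted p = 4.57e-06). NLRC4, the inflammasome core for bacterial flagellin and secretion needle proteins, was not called and lay at 14.2 ± 1.20 and 14.0 ± 1.5 CPM (edgeR adjusted p = 0.913). Its receptor NAIP had 6 counts in each DMSO library and 0, 0 and 2 with WFA, at least 1.82-fold lower when the WFA libraries are set to a floor of 3 counts each, and without the filter on low counts its edgeR adjusted p was 0.00816. NAIP has near-identical gene copies and its counts are uncertain. AIM2, the sensor of cytosolic DNA, had 4, 1 and 0 counts with DMSO and 2, 0 and 3 with WFA, too few to compare.

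More receptors fell than rose and more cytoplasmic signaling genes rose than fell, but the second split narrowed with total counts. The share over all tested genes was 25.8% called higher and 24.7% called lower. Of 9 receptors, 3 rose (33.3%), 5 fell (55.6%) and 1 was not called. The median log2 fold change of the receptors was -0.68, with values from -2.24 to 0.91. Of the 20 tested cytoplasmic TLR signaling genes, 11 rose (55%), 4 fell (20%) and 5 were not called. Their median was 0.27, against a median of 0.022 over all tested genes. With DESeq2 size factors or upper quartile scaling the cytoplasmic split stayed at 11 and 4. With total counts 7 cytoplasmic genes rose and 6 fell, while 2763 of all tested genes were called higher and 3875 lower. Without DMSO replicate 2, 7 cytoplasmic genes rose and 3 fell, beside 2942 and 2945 of all tested genes. Among the receptors TLR6 was the single gene called higher under DESeq2, with total counts, and without DMSO replicate 1, DMSO replicate 2 or WFA replicate 1. In the pairs of replicates 1, 2 and 3 the receptor median was -0.43, -0.27 and -0.94 and the cytoplasmic median 0.22, 0.24 and 0.19. Among the 6 tested NOD and inflammasome genes 2 rose (33.3%) and 3 fell (50%) around a median of -0.30. Counting these 6 with the cytoplasmic genes gave a median of 0.22. Members past 2-fold were all lower among the receptors (4 genes) and all higher among the cytoplasmic TLR signaling genes (2 genes). Past 2-fold, 5.2% of all tested genes were called lower and 8.11% higher. Within the receptors the 7 plasma membrane genes were divided evenly, 3 higher and 3 lower, and their median was 0.37 (0.16 without WFA replicate 1), opposite in sign to the median of all 9 and above the cytoplasmic 0.27. The sign of the receptor median thus depended on whether the endosomal genes, which fell, were counted. Members are not replicates of a condition, so the difference between the medians carries no test.

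Within a library, ratios between partner genes do not depend on how libraries are scaled. From counts per kb of merged exons 9 such ratios were computed, all chosen after the values were seen, and they are given without a test. TLR6 over TLR2 was 0.132, 0.127 and 0.119 in the DMSO libraries and 0.817, 0.668 and 0.798 in the WFA libraries, 6.02-fold higher, so that TLR2 exceeded TLR6 by far with DMSO and only modestly with WFA. TLR1 over TLR2 was 0.0896 ± 0.00866 and 0.375 ± 0.0421. For the kinases, IRAK2 over its inhibitory relative IRAK3 was 0.0431 ± 0.00484 and 0.170 ± 0.0370, and TBK1 over IKBKE was 2.93 ± 0.463 and 7.55 ± 1.85. TICAM1 over MYD88 was 0.217 ± 0.0563 and 0.621 ± 0.0537, and IKBKG over IKBKB was 0.202 ± 0.0302 and 0.532 ± 0.0506. CASP1 over PYCARD was 0.843, 0.758 and 1.10 with DMSO and 3.85, 2.29 and 3.94 with WFA, and CASP1 over NLRP3 was 0.872 ± 0.0412 and 2.73 ± 0.425. RIPK2 over NOD2 was 9.22 ± 1.94 and 25.4 ± 4.66. In each of the 9 the WFA libraries lay above the DMSO libraries. Each pair set a member called higher over one called lower, so this tally followed from the choice of pairs and adds no result.

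**Figure D4:**
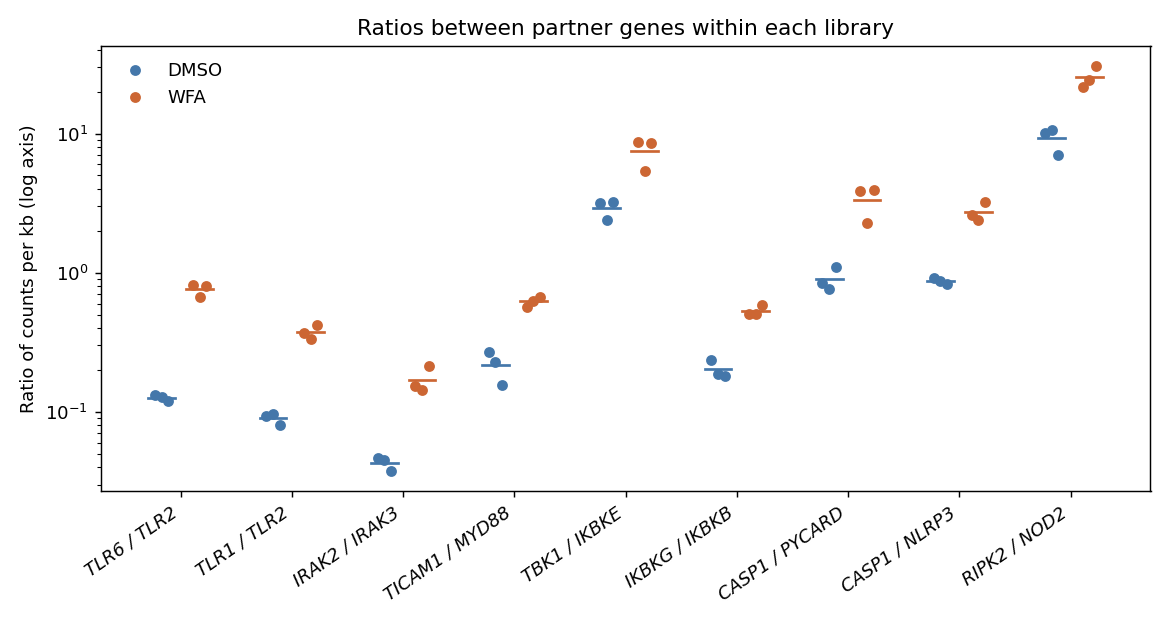
Ratio of counts per kb between partner genes in each library (log axis), with points for the 3 DMSO and 3 WFA libraries and lines for the group means. TLR6 over TLR2 moves from a mean of 0.126 to 0.761.

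Per length, the order of the members also changed. On the scale of CPM per kb of merged exons, IRAK1 was the highest member in both groups, at 48.4 ± 4.63 with DMSO and 61.8 ± 6.52 with WFA. TLR2 stood 3rd with DMSO at 28.7 ± 2.30 and 14th with WFA at 8.92 ± 0.873, whereas CASP1 went from 7th at 21.5 ± 1.29 to 2nd at 44.5 ± 0.793. With DMSO, MAP3K7 (25.4 ± 0.847), NLRP3 (24.6 ± 0.312) and PYCARD (24.6 ± 5.39) lay within their spread of one another, as did CASP1 and IRAK3 (21.5 ± 1.32). TLR2 remained the highest receptor with WFA, followed by TLR6 at 6.77 ± 0.672, and LY96 (4.35 ± 1.87) and TLR1 (3.32 ± 0.104) did not differ beyond their spread. TLR7 was at the low end in both groups, at 0.468 ± 0.0812 and 0.169 ± 0.0125, within the spread of TLR5 with DMSO (0.571 ± 0.0782) and of TLR8 with WFA (0.188 ± 0.0177).

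**Figure D5:**
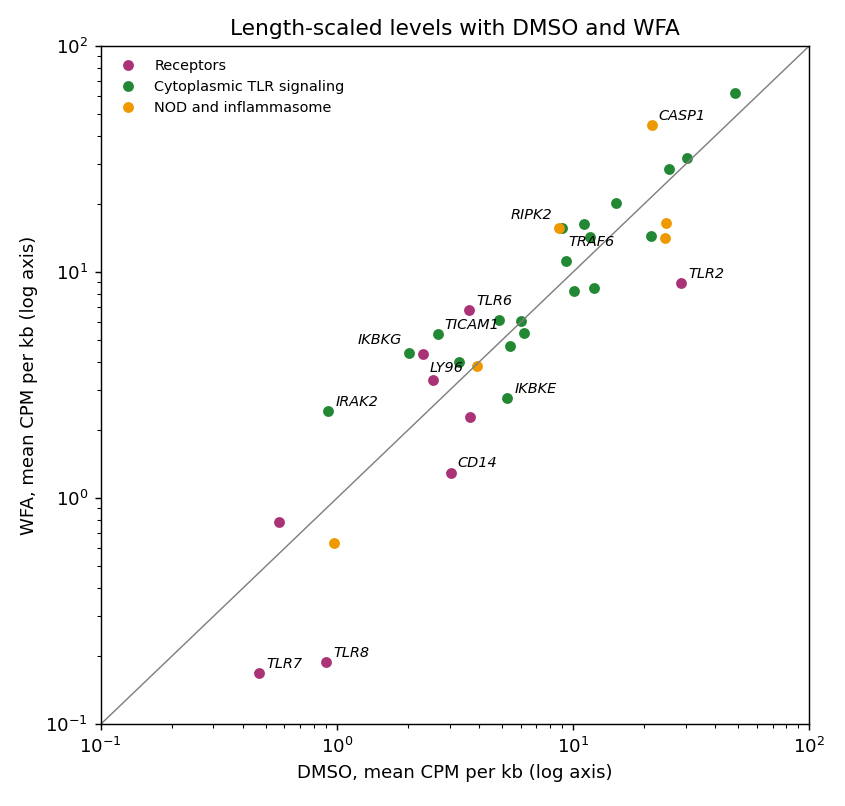
Mean CPM per kb of merged exons with DMSO (x axis) and WFA (y axis), both log axes, 1 point per tested member, coloured by receptors, cytoplasmic TLR signaling and the NOD and inflammasome branch, with the diagonal marking equal levels. TLR2, TLR7 and TLR8 lie below the diagonal and CASP1, IRAK2 and TLR6 above it.

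The neighbouring lists of the pathway are read against the 25.8% of all tested genes called higher and 24.7% called lower. Over all 5 lists 21 genes rose and 25 fell, beside 3311 and 3178 of all tested genes. With total counts 17 rose and 31 fell, where 2763 of all tested genes were called higher and 3875 lower. IL1B and TNFAIP3, which are repeated across lists, were counted once in these totals but in each of their lists below. Of 16 other receptor and trafficking genes, 12 were tested, 3 rose (25%) and 4 fell (33.3%), near the share over all genes. TASL, listed as CXorf21, is an adapter of TLR7, TLR8 and TLR9 toward IRF5 and fell from 208 ± 20.9 to 44.8 ± 8.11 CPM (log2 fold change -2.21, SE 0.12, edgeR adjusted p = 2.89e-09), and IRF5 itself fell (-0.87, adjusted p = 1.14e-06), while SLC15A4, the transporter that holds TASL, rose (0.41). The lipid receptor CD36 (-1.13) and the adapter PIK3AP1 (-0.78) fell, and CD180, a TLR4-like surface protein, rose (1.07), as did the chaperone CNPY4 (0.56). Among 17 tested negative regulators, 7 rose (41.2%) and 3 fell (17.6%), with a median of 0.42. OTULIN, a linear ubiquitin hydrolase, rose from 74.8 ± 5.76 to 177 ± 5.52 CPM (log2 fold change 1.24, edgeR adjusted p = 2.96e-08), and the transcriptional repressor ATF3 (1.78) and the ligase PELI2 (1.09) also rose. TNFAIP3 (A20), which removes ubiquitin chains and is itself induced by NF-kB, fell (-1.09, adjusted p = 1.27e-05), with the phosphatase PTPN6 (-0.65) and the deubiquitinase USP25 (-0.27). Of 17 tested MAPK and IRF genes, 35.3% were called, against 50.5% of all tested genes. They were 2 that rose (MAP2K4, 0.35, and MAPK13, 0.63) and 4 that fell, including MAP2K6 (-1.31) and UBE2N (-0.37).

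Of 34 further inflammasome genes, 27 were tested, 7 rose (25.9%, near the share over all genes) and 11 fell (40.7%). NINJ1, which ruptures the plasma membrane in pyroptosis, rose from 18.2 ± 0.848 to 44.3 ± 4.76 CPM (log2 fold change 1.28, edgeR adjusted p = 3.5e-07), as did CASP4 (0.81), the protease that senses cytosolic lipopolysaccharide. GSDMD, another pyroptosis gene of this list, could not be read, being among 5 of its genes listed at 0 in every library. TXNIP, a NLRP3-binding protein, fell from 585 ± 14.5 to 233 ± 29.9 CPM (-1.33, adjusted p = 6.44e-08), with the deubiquitinase BRCC3 (-0.70) and CARD9 (-1.01). IL1B, a cytokine matured by CASP1, fell from 3.54 ± 0.669 to 1.43 ± 0.316 CPM (-1.31, adjusted p = 0.000861), and IL18, the other cytokine that CASP1 matures, rose from 16.8 ± 1.99 to 23.5 ± 1.79 CPM (0.49, adjusted p = 0.00495). Among 26 genes induced by TLR signaling 12 were tested, and 2 rose (16.7%), namely CD83 (0.73) and PTGS2 (0.49). The 5 that fell (41.7%) included CCL2 at -2.64 and EHD1 at -1.21, and also IL1B and TNFAIP3, already counted in other lists. TNF, IL6, CCL3, CCL4, CCL5, IER3 and ACOD1 are listed at 0 in every library. Genes that most cells use are also low in the table, such as RPS18 with 0 or 1 count, so a value of 0 here is a listing and not a measured absence.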

How the data were processed

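RNA-seq libraries (TruSeq RNA v2, which does not mark strand) from 3 DMSO and 3 WFA cultures were read as raw counts per gene, as deposited by the authors. The submitters' processing notes name bcl2fastq 2.19, Trimmomatic, Bowtie2, Picard, featureCounts, DESeq2 and hg38; roles and annotation are not given in the sources used here. The authors' scaled counts (a score here), fold ratio, log2 fold change, p-value and dispersion columns hold their own comparison and were not used.

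Counts were scaled by TMM and tested with edgeR 4.0.16 (R 4.3.3, quasi-likelihood, no block) after filterByExpr with a minimum count of 10, leaving 12854 genes, with Benjamini-Hochberg adjustment over all of them. With 3 against 3 libraries an exact permutation test cannot go below 0.1. The code was tested on simulated data. Same-numbered libraries, which share a code in the labels, deviated together (correlations 0.217, 0.332 and 0.244), so the numbers pair them. Replicate libraries differed beyond sampling noise (chi-square per gene of at least 5.92). Alternatives were the replicate block, DESeq2 1.42.0, other scalings, no filter and leaving out each library. Exon lengths and overlaps came from GENCODE 29, and promoters from RefSeq, with an entry for 30 of 38 members. Named genes were every member, with values per library for receptors and members past 2-fold, and up to 3 genes per direction by p from each further list, while IL1B, IL18, GSDMD, PYCARD-AS1 and COL1A1 were added after values were seen. Members and lists were chosen with earlier results of these data known. Precision rests on counting and on 3 libraries a group.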

Additional observations from a re-analysis of the deposited data

How the results depend on the processing

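Over 35 members and 12 alternative fits, 372 results kept direction and side of the threshold, 36 lost the call, 6 gained it and 6 changed sign, and 19 members kept their side and direction throughout. The sign changes were of uncalled members, TAB1 (-0.071) and TAB2 (-0.014) with total counts, and, leaving out each library in turn, TAB1 (-0.077 to 0.073) and NLRC4 (-0.078 to 0.067). With total counts 10 members rose and 14 fell and the cytoplasmic median was 0.18, and all genes' median shifted by -0.085. Over all tested genes 2763 were then called higher and 3875 lower, against 3311 and 3178 with TMM. Leaving out each library gave 10 to 15 members higher and 11 to 12 lower, and a cytoplasmic median of 0.23 to 0.27. All tested genes then gave 2942 to 3176 higher and 2815 to 3016 lower. With NOD and inflammasome genes included the cytoplasmic median was 0.22. With the replicate block 18 members rose and 13 fell, as TLR5, TRAF3 and MAP3K7 gained a call, and no other call of a member changed. The blocked fit left 2 residual degrees of freedom, and its prior degrees of freedom were infinite for all 12854 genes. Its p-values thus rest on a spread shared across genes, and the gained calls are to be read with caution. Calls over all tested genes also increased with the block, to 3877 higher and 3708 lower. The cause of these shifts was not tested. Members below about 10 counts a library (TICAM2, AIM2, NAIP) could not be measured well at this depth.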
